A study of Mus musculus with 14 samples.

Results

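Early response genes of T cell receptor (TCR) signaling were followed in regulatory T cells (Tregs) that carried or lacked the AP-1 transcription factor JunB. The group held 10 genes, namely Egr1, Egr2, Egr3, Nr4a1, Nr4a2, Nr4a3, Ier2, Dusp1, Dusp2 and Zfp36, each found by its Ensembl ID among the 53801 genes counted in Foxp3-YFP-cre mice and the 55487 counted in the inducible line. All 10 passed the filter on low counts in every comparison. RNA-seq had been performed on 14 Treg libraries. Libraries are called by the number in their label (mouse 1, 2 or 3). The labels do not say that each PP library came from a separate animal, and p-values then measure only the spread between these samples. Where mice of a PP group are named or counted below, its libraries are meant. Peyer's patch (PP) Tregs of untreated adult male mice (CD4+Foxp3(YFP)+CD62L-) comprised 2 JunB F/+ Foxp3YFPcre (HET) and 2 JunB F/F Foxp3YFPcre (KO) libraries. CD25- PP Tregs (TCRb+CD4+Foxp3(EGFP)+tdTomato+CD25-) comprised 2 libraries of JunB F/+ Foxp3ERT2cre Rosa26-tdTomato+ (iHET) and 2 of JunB F/F Foxp3ERT2cre Rosa26-tdTomato+ (iKO) adult mice. Colonic Tregs from the lamina propria (TCRb+CD4+Foxp3(EGFP)+tdTomato+) came from 3 iHET and 3 iKO mice of that line. Every mouse of the inducible line, iHET included, received tamoxifen by gavage, 3 doses of 8 mg on days 0, 1 and 3, and was analyzed on day 7. In each group of that line the mouse numbered 1 was male, with Foxp3ERT2cre+, and those numbered 2 and 3 were female, with Foxp3ERT2cre+/+. Controls therefore carried cre and 1 floxed Junb allele, so that each genotype comparison set 1 working allele against none. Cre was driven by Foxp3. With Foxp3-YFP-cre, the study describes Cre activity outside Foxp3-expressing cells as well as germline deletion of Junb, which its breeding scheme was meant to limit, so that deletion in these mice may not have been restricted to Tregs.

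The positions are those of GRCm38 with GENCODE M21. The EGR genes were Egr1 (ENSMUSG00000038418.7, chr18:34859823-34864984), Egr2 (ENSMUSG00000037868.15, chr10:67535475-67542188) and Egr3 (ENSMUSG00000033730.4, chr14:70077203-70082614). The NR4A genes were Nr4a1 (ENSMUSG00000023034.7, chr15:101254269-101274795), Nr4a2 (ENSMUSG00000026826.13, chr2:57106830-57124003) and Nr4a3 (ENSMUSG00000028341.9, chr4:48045153-48086447). The others were Ier2 (chr8:84661331-84662852), Dusp1 (chr17:26505590-26562128), Dusp2 (chr2:127336159-127338376) and Zfp36 (chr7:28376784-28380253). Ier2 lies 311.6 kb from the targeted gene Junb on chromosome 8, so that an effect of Junb loss and one of DNA flanking the floxed allele cannot be told apart for it. Reads had been counted without strand, and 11 exon bases of Dusp1 and 125 of Zfp36 are shared with genes on the opposite strand (Ergic1 and Gm44710).

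EGR and NR4A proteins are transcription factors whose genes are switched on within minutes to hours of TCR engagement, through MAP kinase and calcium signaling, without the need for new protein synthesis. Nr4a1, which encodes Nur77, is widely used as a readout of TCR signal strength, and EGR2, EGR3 and the NR4A factors are known for restraining activated T cells and for supporting Treg identity. Dusp1 and Dusp2 encode phosphatases that switch MAP kinases off, Zfp36 encodes tristetraprolin, which speeds the decay of cytokine mRNAs, and Ier2 is a nuclear early response gene of less defined function. The same genes are also induced in many cell types by enzymatic digestion, warming and sorting, so that their level in a sorted cell carries the history of the tissue preparation as well.

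Sequence upstream of the start was taken from RefSeq (GRCm38.p6), which gave a window for 7 of the 10 genes, and the 250 bases before the start were searched on both strands for 5 motifs. These were TGACG (the core of the cAMP response element, CRE), TGACGTCA (the full CRE, which holds the core on both strands), TGANTCA (the AP-1 site), GCGNGGGCG (an EGR site) and the CArG box bound by serum response factor. Of 32817 such windows over all genes, 17.7% held TGACG, 1.55% the full CRE, 6.75% the AP-1 site, 4.70% the EGR site and 1.47% a CArG box. The windows of Nr4a1 and Nr4a2 are printed because both genes stood apart together in 1 library below. Those of Egr2 and Dusp2 are printed because the log2 fold changes of these genes were opposite to each other. Egr2 was negative and Dusp2 positive, both between sites and between PP genotypes, and only the Egr2 difference between sites passed the main test. The windows read as follows from 5′ to 3′, with matches in capitals.
Nr4a1 (chr15:101266596-101266845, + strand): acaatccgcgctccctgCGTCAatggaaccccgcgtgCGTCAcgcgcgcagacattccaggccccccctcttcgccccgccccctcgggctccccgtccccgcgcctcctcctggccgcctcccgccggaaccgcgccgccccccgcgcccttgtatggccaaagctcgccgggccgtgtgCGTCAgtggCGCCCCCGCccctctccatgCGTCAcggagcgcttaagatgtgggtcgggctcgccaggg
Nr4a2 (chr2:57124004-57124253, - strand): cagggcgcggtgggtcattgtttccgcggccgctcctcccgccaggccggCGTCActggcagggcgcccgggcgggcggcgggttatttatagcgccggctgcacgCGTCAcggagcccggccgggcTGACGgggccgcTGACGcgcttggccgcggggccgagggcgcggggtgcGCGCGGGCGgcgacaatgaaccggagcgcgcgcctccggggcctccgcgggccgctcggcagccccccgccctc
Egr2 (chr10:67537619-67537868, + strand, the last of 5 listed windows with no exon base): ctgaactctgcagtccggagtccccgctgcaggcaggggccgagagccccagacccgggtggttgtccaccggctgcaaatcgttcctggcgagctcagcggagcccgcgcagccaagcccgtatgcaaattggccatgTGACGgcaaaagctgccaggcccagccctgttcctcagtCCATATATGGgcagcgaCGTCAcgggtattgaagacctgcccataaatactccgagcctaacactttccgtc
Dusp2 (chr2:127335909-127336158, + strand): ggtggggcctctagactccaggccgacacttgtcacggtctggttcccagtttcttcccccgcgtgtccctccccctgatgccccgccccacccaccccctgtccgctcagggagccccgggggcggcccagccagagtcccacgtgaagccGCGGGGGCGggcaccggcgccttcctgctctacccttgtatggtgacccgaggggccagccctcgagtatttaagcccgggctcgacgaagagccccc
No base of these 4 windows lay in a GENCODE M21 exon, although that of Nr4a1 lay within the longer gene that GENCODE draws.

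TGACG occurred 4 times in the window of Nr4a1, ending 229, 209, 65 and 36 bases before the start, and 4 times in that of Nr4a2, ending 196, 140, 119 and 107 bases before it. The Nr4a3 window also held 4 matches, so that the NR4A genes shared this motif. Egr2 held 2 matches, 107 and 51 bases before the start, on either side of a CArG box at 63 bases, and Dusp1 held 3, of which 2 formed the full CRE at 136 bases. In all, 5 of the 7 windows held TGACG and 4 (Nr4a1, Nr4a2, Dusp2 and Zfp36) held an EGR site, that of Dusp2 at 90 bases. The windows of Zfp36, Nr4a3 and Dusp1, which are not printed, held 250, 152 and 47 exon bases, so that they were wholly or partly exon sequence. No AP-1 site was found in any of the 7 windows, which says only that these letters are not in this stretch.

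Junb matched the labelled genotype in all 14 libraries, with between 4182 and 8471 CPM (counts scaled to library size with TMM factors) in HET and iHET and between 561 and 1029 CPM in KO and iKO. Library totals ranged from 26274861 to 35508709 counts, and Foxp3, the defining marker of Tregs, was at 59.7 to 155 CPM in every library. Il2ra, which encodes CD25, was at 185 to 239 CPM in CD25- PP Tregs and at 561 to 752 CPM in colonic Tregs, which were sorted without a CD25 gate.

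The early genes spanned a wide range of levels, compared here as CPM per kb of exon and averaged over all libraries of a site. Dusp1 was highest at each site, with 1447 in PP Tregs (n = 4), 1566 in CD25- PP Tregs (n = 4) and 1687 in colonic Tregs (n = 6). Nr4a1 followed with 917, 852 and 1141, then Ier2 with 379, 476 and 824, Zfp36 with 233, 236 and 482, and Dusp2 with 132, 202 and 256. Egr3 was lowest, with 5.11, 6.78 and 3.07. Between these, Nr4a2 averaged 92.5, 128 and 87.65, Egr1 62.9, 83.4 and 148, Egr2 81.7, 76.5 and 23.2, and Nr4a3 22.8, 44.7 and 35.6. Neighbours in this order often overlapped, since PP Treg libraries ranged from 54.1 to 73.4 for Egr1, 57.0 to 114 for Egr2 and 47.7 to 160.3 for Nr4a2. In colonic Tregs, Nr4a1 (789 to 1527) overlapped Dusp1 (1499 to 1962), and Egr2 (12.8 to 32.0) overlapped Nr4a3 (22.9 to 44.3).

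Whether loss of JunB under Foxp3-YFP-cre changed these genes was asked by comparing KO with HET PP Tregs. Nr4a2, an orphan nuclear receptor, was lower in KO mice and was the only one of the 10 genes called, 1 of 10 against 3.35% of all 12224 genes tested. It was at 406 and 651 CPM in HET mice 1 and 2 against 194 and 252 CPM in KO mice 1 and 2. The groups did not overlap, and its log2 fold change was -1.24 ± 0.21 (SE), with an adjusted p of 0.0217 in edgeR's quasi-likelihood test after Benjamini-Hochberg correction. The call was lost without HET mouse 2, the library with the highest level (log2 fold change -0.86, adjusted p 0.0737), and without KO mouse 1 (-1.06, adjusted p 0.0567).

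The remaining NR4A genes overlapped between genotypes. Nr4a1 was at 2740.5 and 3853 CPM in HET mice against 3051 and 3224 CPM in KO mice, a log2 fold change of -0.07 with a 95% interval from -0.43 to 0.29. Nr4a3 was at 119 and 189 CPM in HET mice against 101 and 136 CPM in KO mice (-0.38, interval -0.87 to 0.11). HET mouse 2 held the highest level of all 3 NR4A genes.

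The EGR genes were lower in both KO mice than in both HET mice, by amounts that did not pass the test. Egr1 was at 304 and 329 CPM in HET mice against 243 and 252 CPM in KO mice (log2 fold change -0.36 ± 0.08 SE, adjusted p 0.0568). Egr2 was at 287 and 386 CPM in HET mice against 194 and 243 CPM in KO mice (-0.63 ± 0.15, adjusted p 0.0797). Egr3, at 21.6 and 29.3 CPM in HET mice against 18.7 and 20.4 CPM in KO mice, had a log2 fold change of -0.38 ± 0.17 (adjusted p 0.364).

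Zfp36, Dusp2 and Ier2 had positive log2 fold changes, none of which passed the test. Zfp36 was at 652 and 713 CPM in HET mice against 999.6 and 863 CPM in KO mice (log2 fold change 0.45 ± 0.10 SE, adjusted p 0.0620). Dusp2, whose product dephosphorylates ERK and p38 in lymphocytes, was at 197 and 242 CPM in HET mice against 328 and 289 CPM in KO mice (0.49 ± 0.11, adjusted p 0.0641). Ier2 was at 435 and 549 CPM in HET mice against 659 and 663 CPM in KO mice (0.43 ± 0.12, adjusted p 0.109). These 3 genes were higher in both KO mice, whereas Dusp1, at 4195 and 5053 CPM in HET mice against 5300.0 and 4612 CPM in KO mice, overlapped (0.10 ± 0.13).

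In all, 7 of the 10 genes did not overlap between the PP genotypes, against 43.6% of all genes tested, and 6 had an unadjusted p under 0.05, against 14%. The median log2 fold change of the 10 genes was -0.21 and that of all genes tested 0.00, with 6 negative and 4 positive values. The call depended on the test for 5 genes. With edgeR's exact test, which the study used, Egr1, Egr2, Ier2, Dusp2 and Zfp36 were called beside Nr4a2 (adjusted p between 0.00645 and 0.0314), and DESeq2 called the same 6 genes.

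**Figure D1:**
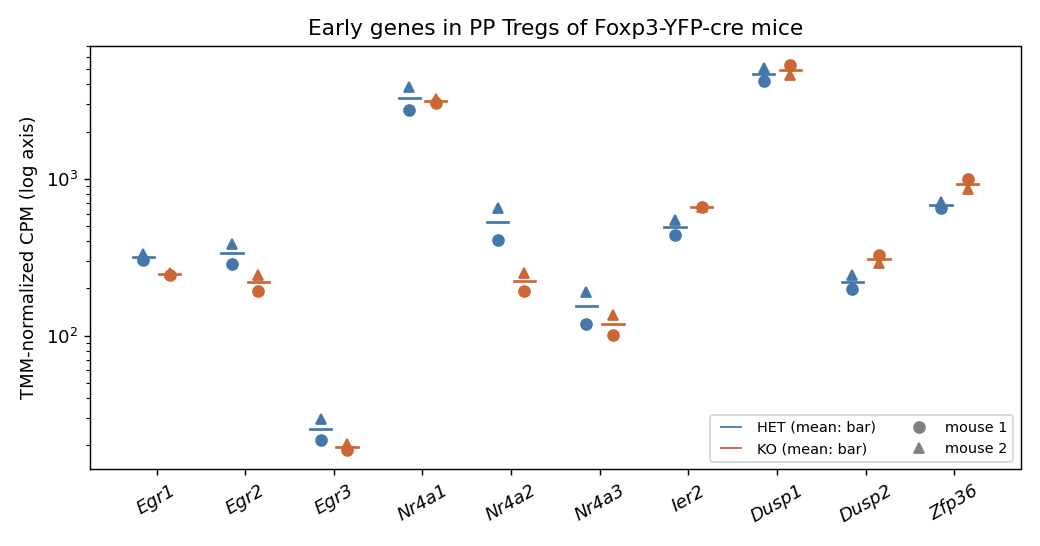
TMM-normalized CPM (log axis) of the 10 early genes in PP Tregs of 2 HET and 2 KO Foxp3-YFP-cre mice, with the bar at each group's mean and the symbol giving the mouse. Nr4a2 sits at 406 and 651 CPM in HET mice against 194 and 252 CPM in KO mice, while Nr4a1 and Dusp1 overlap.

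Among partners and targets of TCR signaling, 1 of 25 tested genes was called higher and 5 lower in KO PP Tregs (median log2 fold change -0.11). The lower ones with the lowest p were Pdcd1, which encodes PD-1 (-0.91), Cd200 (-0.60) and Pou2af1, which encodes the coactivator OCA-B (-1.58), with adjusted p between 0.00620 and 0.0114. Relatives of the DUSP, ZFP36 and IER genes split evenly, with 2 higher and 2 lower of 10 (median 0.11), among them Ier5l (-0.40), Dusp5 (0.53) and Dusp6 (-0.55). Of 21 other immediate early genes of dissociation, 2 were called, and both were higher (median 0.04), Socs3 (0.53) and Nfkbia (0.54), each an inhibitor of a signaling pathway. None of 11 heat shock genes was called, and the lowest p belonged to Hsph1 (-1.29, unadjusted p 0.0138) and Hspa1a (-1.03, unadjusted p 0.0228), with a median of -0.33.

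Markers of other cells moved with genotype in these PP Tregs. All 8 markers of intestinal epithelium were lower in KO mice, of which 6 were called, and their summed level was 141 to 184 CPM in HET and 64.0 to 72.5 CPM in KO mice, with none of the 8 at 0 in every library of a group. B cell markers summed to 146 to 163 CPM in HET and 82.2 to 119 CPM in KO mice, with 1 of 6 called lower, and 1 of 4 tested cytotoxic markers was called lower. Heat shock genes summed to 4047 and 7166 CPM in HET mice 1 and 2 and to 3935 and 4419 CPM in KO mice, so that HET mouse 2, in which Nr4a2 was highest, was also highest for these. Of 6 Treg markers, 2 were called higher in KO mice and none lower. They were Foxp3 (log2 fold change 0.51, adjusted p 0.0167) and Il2ra (0.73, adjusted p 0.0199) in the quasi-likelihood test. The study reports an almost total loss of T follicular regulatory cells in PP of KO mice. It ascribes most of its differing genes there to that loss, and lists Pdcd1 among the reduced follicular genes. The part of any of these in the values of the early genes was not tested. In sorted bulk samples, fewer cells of a type and less RNA per cell cannot be told apart.

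In CD25- PP Tregs, sampled 7 days after the start of deletion, none of the early genes was called (0 of 10, and 0% of 17079 genes tested). Junb itself, at a mean of 4865 CPM in iHET and 901 CPM in iKO mice, was not called either. The lack of calls in this fit therefore does not show a lack of change. With its exact test and the same FDR threshold, the study does report differing genes in this comparison. The exact test and DESeq2 also called 0 of the 10 genes, none had an unadjusted p under 0.05 in the quasi-likelihood test, and 618 of all genes did. For the NR4A genes a single control library, iHET mouse 2, stood apart. Nr4a1 was at 3383 and 1378 CPM in iHET mice 1 and 2 and at 3731 and 3472 CPM in iKO mice 1 and 2. Nr4a2 was at 711 and 151 CPM in iHET and 647 and 566 CPM in iKO mice, and Nr4a3 at 368 and 49.9 CPM in iHET and 384 and 269 CPM in iKO mice.

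All 3 NR4A genes were thus lowest in iHET mouse 2. Its level was 0.40 times the median of the other 3 libraries for Nr4a1, 0.234 times for Nr4a2 and 0.136 times for Nr4a3. Of all genes tested in CD25- PP Tregs, 2.16%, 0.574% and 0.246% had a lower ratio than these. Egr2 stood lower as well (0.636 times), whereas the ratio was 0.893 for Egr1, 0.996 for Egr3, 0.926 for Ier2, 0.981 for Zfp36 and 1.11 for Dusp1, and 1.57 for Dusp2, which was highest in this library. Junb was at 4182 CPM in this mouse and 5547 CPM in iHET mouse 1. Summed heat shock genes came to 2326 CPM in this library, against 2061 CPM in iHET mouse 1 and 2257 and 6672 CPM in iKO mice 1 and 2. For these genes it was therefore iKO mouse 2 that stood apart, and its part in the genotype differences was not tested. Other immediate early genes summed to 15362 CPM in iHET mouse 2, below the other 3 libraries (16870.1 to 17478 CPM). Partners and targets of TCR signaling summed to 9920 CPM, also below the other 3 libraries (13403 to 13820 CPM). The same held for relatives of the DUSP, ZFP36 and IER genes (4322 CPM against 4842 to 5183 CPM).

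The genotype differences of the NR4A genes rested on this library. They came to 0.59 (95% interval -0.33 to 1.51) for Nr4a1, 0.49 (-1.0 to 1.98) for Nr4a2 and 0.64 (-1.24 to 2.52) for Nr4a3 on the log2 scale. Without iHET mouse 2 they were 0.08, -0.24 and -0.18, none called. Without iHET mouse 1, which leaves the low library as the only control, they were 1.39, 2.01 and 2.71, and all 3 genes were called (adjusted p 0.00120, 0.000531 and 0.000531 in the quasi-likelihood test, with the lone control assumed to vary like the iKO mice).

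The other genes were closer. Egr1 was at 390.1 and 348 CPM in iHET and 348 and 409 CPM in iKO mice, Egr2 at 307 and 180.2 CPM and at 266 and 285 CPM, and Egr3 at 32.0 and 30.2 CPM and at 30.5 and 26.9 CPM. Ier2 was at 665 and 665 CPM in iHET and 844 and 724 CPM in iKO mice, and was with Nr4a1 the only gene whose groups did not overlap, 2 of 10 against 32.1% of all genes. Dusp1 was at 4769.5 and 5264 CPM in iHET and 4762 and 5947 CPM in iKO mice, Dusp2 at 350.4 and 549 CPM and at 380.5 and 337 CPM, and Zfp36 at 819.9 and 803 CPM and at 841 and 817 CPM. The Zfp36 values were the most even of the 10, with a log2 fold change of 0.02 and an interval from -0.26 to 0.31.

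No gene of the accompanying lists was called in CD25- PP Tregs. The lowest p was held by Pdcd1 (log2 fold change 0.42, unadjusted p 0.0805) and Ndrg1 (0.65, 0.0851) among TCR targets, by Ier5 (0.35, 0.0714) and Ier3 (0.92, 0.134) among relatives, by Maff (0.81, 0.0385) and Ppp1r15a (0.35, 0.0643) among other immediate early genes, and by Dnaja1 (0.63, 0.0178) and Hsp90aa1 (0.72, 0.0189) among heat shock genes. All had an adjusted p of 0.999 in the quasi-likelihood test.

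In colonic Tregs, for which the study had housed a pair of genotypes in each cage, the mouse number entered the fit in place of the cage. Again 0 of the 10 genes were called, against 0.00613% of the 16313 genes tested, which is Junb alone. With its likelihood ratio test and the same FDR threshold, the study reports more differing genes in this comparison. The likelihood ratio test of the study and DESeq2 also called 0, and no member had an unadjusted p under 0.05, while 632 of all genes did. No gene separated the genotypes (0 of 10, against 8.35% of all genes). The largest differences in size were those of Nr4a3 (-0.40 on the log2 scale, 95% interval -0.82 to 0.02), Egr3 (-0.32, -0.80 to 0.15) and Dusp2 (0.31, -0.07 to 0.68).

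The 6 colonic libraries differed by mouse number more visibly than by genotype. Nr4a1 was at 2767, 5359 and 3794 CPM in iHET mice 1, 2 and 3 and at 3804, 4903 and 3398 CPM in iKO mice 1, 2 and 3. Egr1 was at 589, 915 and 439 CPM in iHET and 498, 1004 and 550.5 CPM in iKO mice. Both libraries of mouse number 2 were the highest of the 6 for these genes. The same held for Egr2 (80.9, 109 and 43.6 CPM in iHET, 84.6, 90.0 and 64.7 CPM in iKO mice) and for Nr4a2 (309, 422 and 386 CPM in iHET, 365, 395 and 257 CPM in iKO mice). Ier2 (922, 1486 and 1081 CPM in iHET, 1327, 1535 and 1176 CPM in iKO mice) and Zfp36 (1699.9, 2051 and 1126 CPM in iHET, 1525, 1923 and 1720.1 CPM in iKO mice) shared this order. In all, 6 of the 10 genes had both libraries of number 2 on top, against 7.03% of the genes tested. Number 2 was named from these same genes, and the share is that of number 2 alone. Genes that are induced together are also not separate counts, so this is given as a description and not as a test.

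Among the other 4 genes the order was mixed. Egr3 was at 15.4, 19.3 and 10.9 CPM in iHET and 12.3, 13.2 and 10.2 CPM in iKO mice, and Nr4a3 at 209, 265 and 247 CPM in iHET and 193, 227 and 137 CPM in iKO mice. Dusp1 ranged from 4963 to 6497 CPM, the highest in iKO mouse 3. Dusp2 was at 440 CPM, 536 CPM and 401 CPM in iHET and at 612 CPM, 506 CPM and 583 CPM in iKO mice. Heat shock genes summed to 7986 and 8415 CPM in the libraries of number 2, to 7645 CPM in iKO mouse 3 and to 2978 to 5308 CPM in the other 3. Epithelial markers summed to 744 and 622 CPM in number 2, to 1366 CPM in iKO mouse 3 and to 152 to 324 CPM in the other 3. Other immediate early genes of dissociation were highest in number 2, with sums of 27740 and 25173 CPM. They summed to 20757 to 23575 CPM in the remaining colonic libraries. The part of any of these in the order by number was not tested, and the sources used here do not state that a number stands for a cage.

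**Figure D2:**
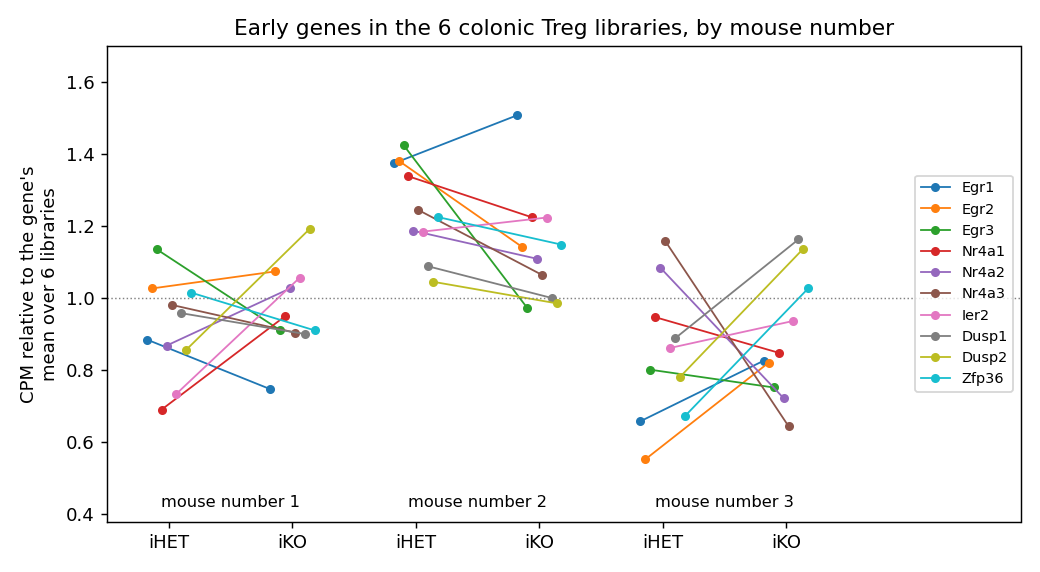
CPM of each early gene in the 6 colonic Treg libraries relative to the gene's own mean over them (vertical axis), with libraries grouped by mouse number (horizontal axis) and a line joining the iHET and iKO library of a number. Both libraries of number 2 lie above 1 for 6 genes that are highest there, such as Egr1 (915 and 1004 CPM).

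The genes whose log2 CPM followed the mean standardized level of the 10 genes most closely over the 6 colonic libraries were Ccnl1 (r = 0.997), a cyclin linked to RNA processing, Mex3d (0.988), Sema6d (0.987), Errfi1 (0.987), a feedback inhibitor of EGF receptors, and Traf6 (0.983), an adaptor of innate receptors. Ccnl1 was at 563 and 509 CPM in the libraries of number 2 and between 402 and 448 CPM in the other 4. These are the highest of 16303 correlations over 6 points that share tissue and preparation, and are given as a description. Within the group itself, the correlation with the mean ran from 0.395 for Dusp1 and Dusp2 to 0.903 for Egr1.

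None of the accompanying lists held a called gene between colonic iHET and iKO Tregs. The lowest p was that of Gpr83 (log2 fold change 0.70, unadjusted p 0.0268) and Irf4 (-0.28, 0.0295) among TCR targets, Dusp16 (-0.41, 0.0488) and Ier3 (0.49, 0.0518) among relatives, Fosb (-0.15, 0.210) and Cebpb (-0.17, 0.234) among other immediate early genes, and Hsph1 (-0.30, 0.15) and Hspe1 (0.24, 0.200) among heat shock genes. The adjusted p was 0.947 for each in the quasi-likelihood test.

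**Figure D3:**
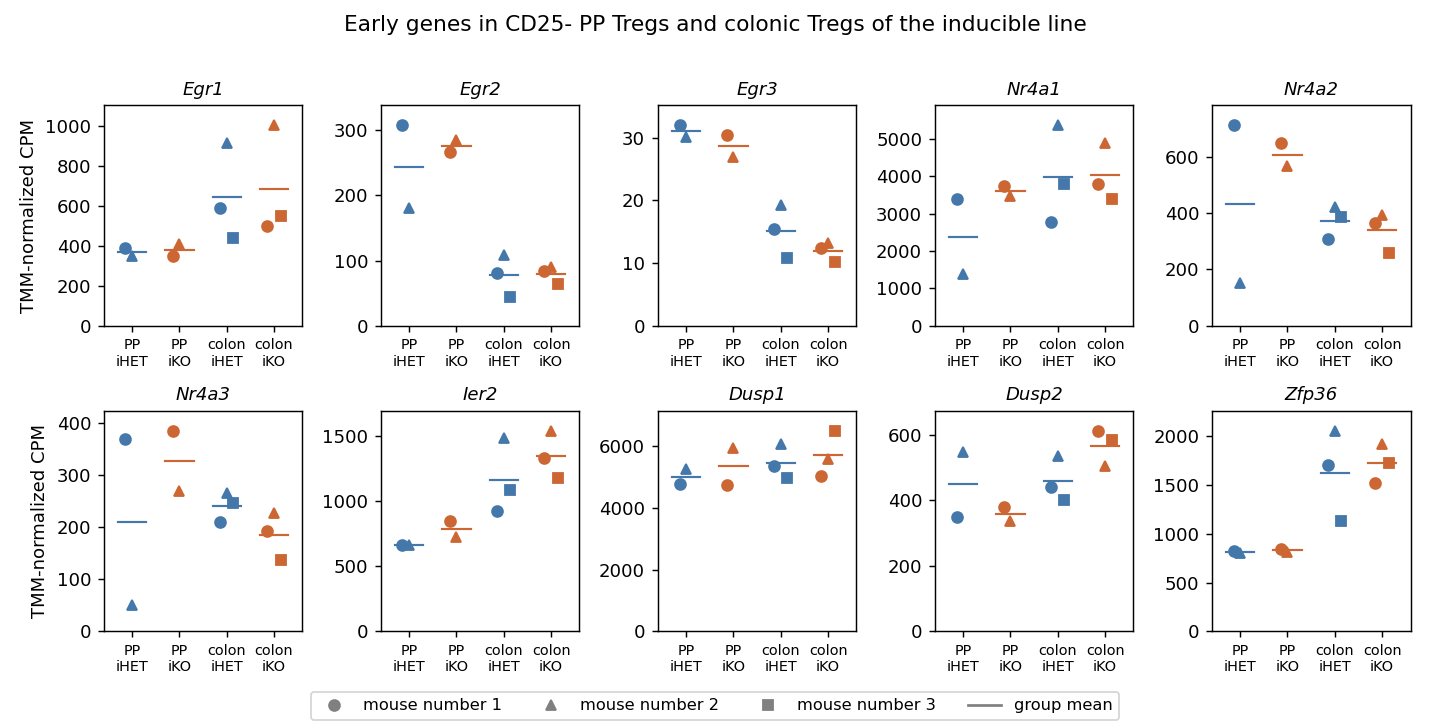
TMM-normalized CPM (vertical axis, from 0) of each early gene in 2 iHET and 2 iKO libraries of CD25- PP Tregs and in colonic Tregs of 3 iHET and 3 iKO mice, with a line at the group mean and the symbol giving the number in the label. Egr2 and Egr3 sit lower in every colonic library, Ier2 and Zfp36 sit higher, and the NR4A genes show the low PP library of iHET mouse 2.

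Between sites the early genes did not move together. Colonic Tregs had lower Egr2 and Egr3 and higher Egr1, Ier2 and Zfp36 than CD25- PP Tregs, 5 called genes of 10 against 17.3% of 18626 genes tested. The 2 lower genes compare with 7.29% of all genes called lower, and the 3 higher ones with 10% called higher. The same 5 genes did not overlap between the 6 colonic and 4 PP libraries, against 16.4% of all genes. The labels do not tell whether colonic and PP libraries of the same number came from the same mouse. This fit treated the 10 libraries as independent. With the same number of males in each group, of 2 libraries in PP and 3 in colon, the share of males also differed between sites. Site goes together with the CD25- gate, used in PP only, and with the digestion, which in colon added removal of the epithelium in warm EDTA, dispase and a Percoll gradient, so that the 3 cannot be told apart.

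Egr2 had the largest difference of the group. It averaged 78.8 ± 22.4 CPM in colonic (SD, n = 6) and 259.8 ± 55.6 CPM in CD25- PP Tregs (SD, n = 4), and the log2 fold change was -1.72 ± 0.24 (SE, adjusted p 0.00157 in edgeR's quasi-likelihood test). Egr3, which overlaps with Egr2 in function in T cells, averaged 13.5 ± 3.36 CPM and 29.9 ± 2.13 CPM (log2 fold change -1.15 ± 0.17, adjusted p 0.00176). Egr1 went the other way, with 666 ± 235 CPM in colonic and 374 ± 30.8 CPM in CD25- PP Tregs (0.83 ± 0.24, adjusted p 0.0431). Members of the EGR family thus differed in sign between the sites, the pair Egr2 and Egr3 being lower and Egr1 higher in colon.

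The call for Egr1 was the least secure. It was lost without colonic iHET mouse 1 or 2, without colonic iKO mouse 2 and without any single CD25- PP library, with log2 fold changes from 0.63 to 0.90 and adjusted p from 0.0520 to 0.144 in these 7 fits. Colonic mouse number 2, the highest for Egr1 in both genotypes, lowered the difference to 0.66 (iHET) or 0.63 (iKO) when left out. Egr2, Egr3, Ier2 and Zfp36 stayed called when any 1 of the 10 libraries was left out.

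Zfp36 averaged 1674 ± 325 CPM in colonic Tregs and 820.1 ± 16.0 CPM in CD25- PP Tregs (log2 fold change 1.03 ± 0.15 SE, adjusted p 0.00238). Ier2 averaged 1255 ± 239 CPM and 724 ± 84.4 CPM (0.79 ± 0.14, adjusted p 0.00550). The phosphatases overlapped between sites. Dusp1 had a log2 fold change of 0.11 with an interval from -0.13 to 0.35, and Dusp2 one of 0.34 (0.03 to 0.66, adjusted p 0.122).

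The NR4A genes were not called between sites, with log2 fold changes of 0.45 for Nr4a1 (95% interval -0.11 to 1.02), -0.52 for Nr4a2 (-1.28 to 0.23) and -0.31 for Nr4a3 (-1.24 to 0.62). Without the low PP library of iHET mouse 2, Nr4a2 (-0.88, adjusted p 0.0126), Nr4a3 (-0.71, adjusted p 0.0461) and Dusp2 (0.53, adjusted p 0.0401) were called by the quasi-likelihood test. Without iHET mouse 1 of the PP instead, Nr4a2 and Nr4a3 changed sign (0.25 and 0.74, neither called) and Nr4a1 was called (0.86, adjusted p 0.0366).

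The site difference was also taken within each genotype. In iHET mice 4 of the 10 genes were called (Egr2, Egr3, Ier2 and Zfp36), against 6.45% of all genes, and in iKO mice 3 (Egr2, Egr3 and Zfp36), against 4.07%. Egr2 differed by -1.65 in iHET and -1.79 in iKO mice on the log2 scale, Egr3 by -1.03 and -1.27, and Zfp36 by 1.0 and 1.06. Ier2 differed by 0.81 in iHET (adjusted p 0.0445) and 0.78 in iKO mice (adjusted p 0.0620).

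Whether the response to JunB loss differed between sites was tested as the interaction of organ and genotype. None of the 10 genes was called (0 of 10, and 0% of all genes), nor by the likelihood ratio test or DESeq2. Only Dusp2 had an unadjusted p under 0.05 in the quasi-likelihood test (0.0486, adjusted p 0.99992), as did 622 of all genes. Its interaction of 0.63 on the log2 scale, from an iKO to iHET difference of -0.33 in CD25- PP and 0.31 in colonic Tregs, fell to 0.27 without the PP library of iHET mouse 2. The interval of the NR4A interactions was wide, for Nr4a3 from -2.88 to 0.85.

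**Figure D4:**
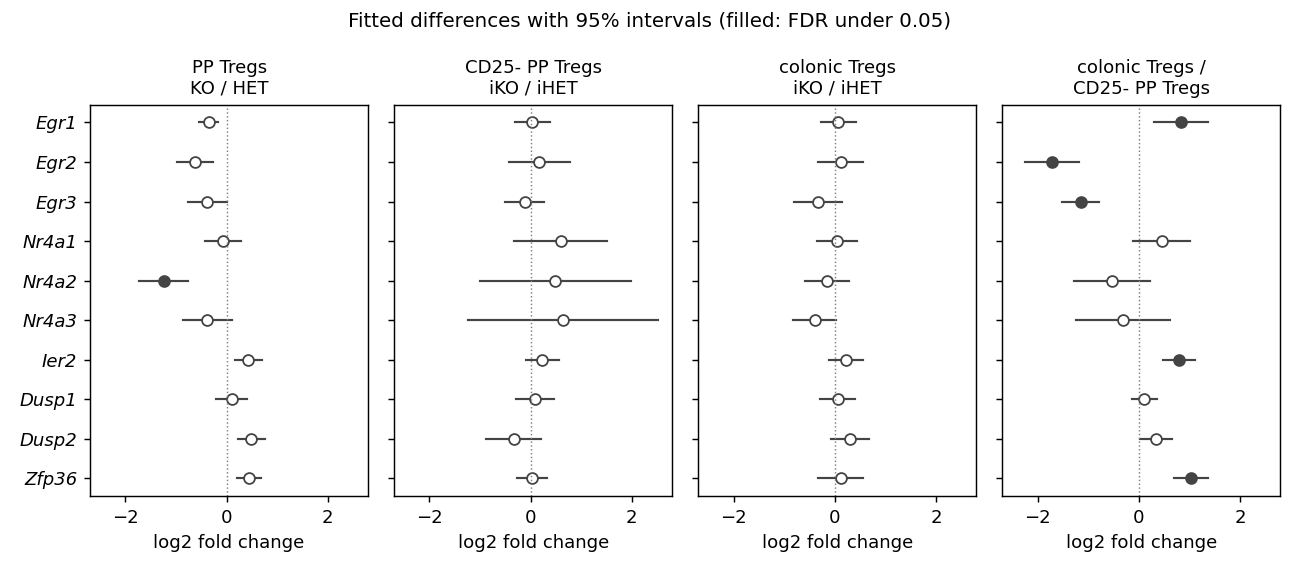
Log2 fold change (horizontal axis) with its 95% interval for each early gene (vertical axis) in the 4 comparisons, filled where the FDR was under 0.05. Nr4a2 is the filled point in PP Tregs, none is filled in the comparisons of iKO with iHET, and 5 are filled between colonic and CD25- PP Tregs, with Egr2 and Egr3 to the left of 0.

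Of the 4 accompanying lists, 3 had more genes called higher than lower in colonic Tregs, and the TCR targets did not. Of 10 relatives, 5 were called higher and none lower in colonic Tregs (median log2 fold change 0.82), led by Ier3 (2.82), Ier5 (0.98) and Dusp6, the ERK phosphatase (0.88). Of 21 other immediate early genes, 9 were higher and 1 lower (median 0.72), led by the NF-κB inhibitor Nfkbia (1.62), by Nfkbiz (1.32) and by the stress factor Atf3 (3.09). Among 11 heat shock genes 3 were higher and none lower (median 0.64), namely Hspb1 (3.94) and the near-identical Hspa1a (2.52) and Hspa1b (2.42), whose levels are uncertain because reads that map to both were left out of the counts. The TCR targets divided, with 5 higher and 7 lower of 26 (median 0.06), such as Tnfrsf9, which encodes 4-1BB (1.74), and Irf4 (1.35) against Pou2af1 (-2.79). The genes of these lists that are named had adjusted p between 0.000288 and 0.0366, and the median over all genes was 0.00.

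Markers of other cells were higher in the colonic libraries too. Of 8 epithelial markers 4 were called higher, with sums of 152 to 1366 CPM in colonic and 125 to 310 CPM in CD25- PP Tregs. Myeloid markers (2 of 6 higher) summed to 161 to 378 CPM and 134 to 176 CPM, and stromal and endothelial markers (2 of 3 tested higher) to 144 to 849 CPM and 98.1 to 166 CPM, while 1 of 6 B cell and 2 of 5 cytotoxic markers were lower. Colonic iKO mouse 1 had an epithelial sum of 152 CPM, inside the PP range. Its stromal and endothelial sum (849 CPM) and its myeloid sum (288 CPM) lay above the PP range. In this library Egr2 (84.6 CPM), Egr3 (12.3 CPM), Egr1 (498 CPM), Ier2 (1327 CPM) and Zfp36 (1525 CPM) all lay outside the range of the 4 PP libraries. The same held in every colonic library, since these genes did not overlap between sites. These are values of 1 library, and the part of the markers in the site differences was not tested.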

How the data were processed

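Tregs were sorted from Peyer's patches and colonic lamina propria, and low-input libraries were made with the SMARTer v4 kit. The authors trimmed reads with Trim Galore, aligned them to mm10 with STAR, leaving out multimapped reads, and counted them per gene with featureCounts without strand, and the deposited values are raw counts, in 1 table for the Foxp3-YFP-cre line and 1 for the inducible line. The 2 tables were normalized separately here, so levels were not tested across them. Dropping multimapped reads can lower the counts of near-identical genes.

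Genes were kept where they reached 1 CPM in a number of libraries no lower than the smallest group's size, scaled with TMM factors and tested with edgeR (version 4.0.16, R 4.3.3, prior count 1) in quasi-likelihood fits, as PP KO against HET, CD25- PP iKO against iHET, colonic iKO against iHET with mouse number as a term, colonic against CD25- PP over 10 libraries, and the interaction of organ and genotype. A gene was called at a Benjamini-Hochberg FDR under 0.05 over all genes tested. Log2 fold changes carry standard errors and 95% intervals from the fit. Alternatives were the tests of the study (exact and likelihood ratio), DESeq2 (1.42.0), its size factors, no filter, 10 counts or more in each library, a smaller prior count (0.125), the replicate number as a block, and each library left out. The fits were also run on simulated counts with planted changes, whose outcome is not given here and is not used as support. Figures were drawn with matplotlib (3.10.9).

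The members and lists were chosen with earlier results of these data known. All 10 members were described, and from each accompanying list the genes with the lowest p were named, up to 3 where called and 2 where not. Totals of 26274861 to 35508709 counts put the floor of 3 counts at 0.0845 to 0.114 CPM, far below every member. The floor covers counting error only.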

Additional observations from a re-analysis of the deposited data

How the results depend on the processing

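Of 712 values of single early genes under an alternative, 605 kept their direction and their side of the threshold. Another 43 kept the direction and lost a call, 40 kept it and gained one, and 24 changed sign, each of these when 1 library was left out. The tally held all 10 genes in the genotype comparisons and between sites. Within a genotype it held only Egr2, Egr3, Ier2 and Zfp36, and in the interaction only Dusp2. The NR4A genes were thus left out of both, so the tally does not describe their stability there. In PP Tregs, where 1 of the 10 genes was called, the exact test and DESeq2 each called 6, and 7 were called without a filter on low counts, which added Nr4a3, and the count was 0 to 1 with 1 library left out. Without the filter, 2 genes (Nr4a1 and Nr4a3) were called in CD25- PP Tregs, 8 between colonic and CD25- PP Tregs, and 1 (Nr4a3) in the interaction, and the cause was not tested. With 1 library left out, 0 to 3 genes were called in CD25- PP Tregs, 0 in colonic Tregs, 4 to 7 between sites, and 0 to 4 within iHET or within iKO mice. Over all genes, the 409 calls in PP Tregs became 689 with the exact test, 696 with DESeq2, 1305 without a filter and 54 to 313 with a library left out, and the 3227 between sites became 1514 to 3959.

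Signs that turned when a library was left out belonged to small or variable differences, with log2 fold changes from -0.026 to 0.24 for Dusp1 and -0.29 to 0.20 for Nr4a1 in PP Tregs. In CD25- PP Tregs they ran from -0.076 to 0.14 for Egr1, -0.17 to 0.62 for Egr2, -0.24 to 2.01 for Nr4a2, -0.18 to 2.71 for Nr4a3, -0.61 to 0.022 for Dusp2 and -0.068 to 0.24 for Dusp1. In colonic Tregs they ran from -0.15 to 0.17 for Nr4a1, -0.054 to 0.23 for Egr1, -0.10 to 0.32 for Egr2, -0.35 to 0.073 for Nr4a2, -0.10 to 0.16 for Dusp1 and -0.12 to 0.25 for Zfp36. Between sites they ran from -0.88 to 0.25 for Nr4a2 and -0.71 to 0.74 for Nr4a3.

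With the replicate number as a block, 7 of the 10 genes were called in PP Tregs and 1015 of all genes, where same-numbered libraries correlated in their deviations with r = 0.159. The block left 0 called in CD25- PP Tregs (r = 0.0836) and in the interaction, 5 between sites with 2362 of all genes, 3 within iHET and 3 within iKO mice with 430 of all genes in the latter, and 0 were called in colonic Tregs without it, where r was 0.128, 0.330 and -0.0402. With 2 libraries per PP group, the numbers are not shown to pair the samples.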
